A study of Mus musculus with 12 samples.

Results

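The genes described here are those of the unfolded protein response, the transcriptional answer of a cell to misfolded protein in its endoplasmic reticulum (ER). They are 34 genes listed by symbol, each represented by its probe set with the highest mean signal among probe sets that carry 1 gene symbol. All 34 were found among the 19938 genes on the array with such a probe set, and all 34 were among the 14953 genes kept for testing. Of these members, 22 belong to the chaperone and ER-associated degradation arm driven by ATF6 and XBP1, 7 to the PERK/ATF4 arm, and 5 are the stress sensors together with Xbp1. The samples were hypothalami of male C57BL/6J mice made obese on a diet with 45% fat, begun at 3 weeks of age and kept up for 20 weeks, so that the mice were 23 weeks old. Every mouse, controls included, was obese and received 4 days of DMSO injections into the abdominal cavity before the treatment itself. For the next 4 days the groups received DMSO, celastrol at 100 µg per kg or withaferin A at 2 mg per kg once a day, with 4 mice and 4 arrays in each group. No lean group was analysed here. Celastrol, a triterpenoid of the thunder god vine, and withaferin A, a steroidal lactone of Withania somnifera, are plant compounds known to make obese mice eat less and lose weight, and hypothalamic ER stress has been proposed as a brake on leptin signalling that such compounds relieve. The comparisons below ask how far the transcripts of this response differed between treated and control mice.

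The response begins with sensors in the ER membrane. IRE1 (gene Ern1) splices the Xbp1 messenger RNA into a form that encodes an active factor, ATF6 and its relative ATF6B are cut in the Golgi to release transcription factors, and PERK (gene Eif2ak3) phosphorylates the translation initiation factor eIF2α, which lowers protein synthesis and favours translation of ATF4. Spliced XBP1 and cleaved ATF6 raise chaperones, disulfide isomerases and the machinery that sends misfolded protein to the proteasome. ATF4 raises genes of amino acid supply, the factors CHOP (gene Ddit3) and ATF3, and PPP1R15A, which reverses the eIF2α mark. The arrays measured total transcript per gene, so splicing of Xbp1, cleavage of ATF6 and phosphorylation of eIF2α were outside what these values show.

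The promoters of the arms carry different elements, and the sites are shown as a description that does not rest on the arrays. The arms were drawn up by the factors known to drive them, so the elements are no separate evidence for the division. RefSeq windows on GRCm38.p6, from 250 bases before to 50 bases after the annotated start, were at hand for 30 of the 34 members, the exceptions being Atf6, Hyou1, Manf and Derl1. On both strands the windows were searched for the ER stress response element (ERSE: CCAAT, 9 free bases, CCACG), which ATF6 and XBP1 are known to use. Derl2 has 2 windows, so that the 19 chaperone arm genes have 20. The element was present in 8 of these 20 windows, each of another gene, in 0 of 7 PERK/ATF4 genes and in 0 of 4 sensor genes. Of all 32851 windows in the table, 0.119% held it. Each line gives 1 site with 8 bases on either side, read 5′ to 3′ on the strand that carries the element, with the fixed letters in capitals.
Hspa5 (chr2:34772017-34772051, plus strand): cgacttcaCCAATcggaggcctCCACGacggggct
Hsp90b1, nearer site (chr10:86705525-86705559, plus strand): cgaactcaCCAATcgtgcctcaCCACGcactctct
Hsp90b1, farther site (chr10:86705630-86705664, minus strand): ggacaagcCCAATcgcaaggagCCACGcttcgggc
Calr (chr8:84847067-84847101, plus strand): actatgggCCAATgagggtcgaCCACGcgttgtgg
Canx (chr11:50325792-50325826, minus strand): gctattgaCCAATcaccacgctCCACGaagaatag
Pdia6 (chr12:17266483-17266517, plus strand): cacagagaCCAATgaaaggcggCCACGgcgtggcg
Dnajc3 (chr14:118937819-118937853, plus strand): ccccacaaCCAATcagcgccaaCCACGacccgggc
Creld2 (chr15:88819512-88819546, minus strand): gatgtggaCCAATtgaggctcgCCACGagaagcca
Syvn1 (chr19:6046524-6046558, plus strand): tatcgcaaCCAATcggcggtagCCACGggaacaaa

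The sites lay from 44 to 212 bases upstream of the start, counted at their first base in the direction of the gene. In Calr, Creld2 and the nearer site of Hsp90b1 the element ran against the direction of the gene. A CCAAT box, which the ERSE contains, was present in 18 of the 20 chaperone arm windows, 4 of the 7 PERK/ATF4 windows and 2 of the 4 sensor windows, against 37.4% of all windows. A related element, ERSE-II (ATTGG, 1 free base, CCACG), was found in Herpud1 and Dnajb11 and in 0.0365% of all windows. The XBP1 core TGACGTGG was present in 0 of the members' 31 windows and in 0.676% of all windows. A match is a run of letters, and the arrays did not measure binding at any of these places.
Herpud1, ERSE-II (chr8:94386369-94386395, plus strand): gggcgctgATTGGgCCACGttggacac
Dnajb11, ERSE-II (chr16:22857844-22857870, plus strand): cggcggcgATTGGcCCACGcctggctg

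The core of the C/EBP-ATF composite site (TGATG, 1 free base, AA), to which ATF4 is known to bind with a C/EBP partner, was present in 4 of 7 PERK/ATF4 genes and in 3.97% of all windows. Among the 20 chaperone arm windows it occurred in that of Herpud1 alone. In Trib3 and in the ERSE-II of Dnajb11 the site lay after the start.
Asns (chr6:7693217-7693240, minus strand): cagccacaTGATGaAActtcccgc
Atf3 (chr1:191183428-191183451, plus strand): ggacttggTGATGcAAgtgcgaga
Chac1 (chr2:119351041-119351064, minus strand): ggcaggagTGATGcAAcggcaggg
Trib3 (chr2:152344031-152344054, plus strand): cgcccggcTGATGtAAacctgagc
Herpud1 (chr8:94386309-94386332, minus strand): gtgcgggcTGATGcAAcccgccgt

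Hspa5 and Herpud1 are shown with all 250 bases before the start on the strand of the gene, since the first is the usual marker of the chaperone arm and the second is the 1 member whose window holds an element of each arm. Capitals mark the ERSE in Hspa5, and in Herpud1 the composite site, here in reverse, followed by ERSE-II, in both cases with their free bases.
Hspa5 (chr2:34771840-34772089, plus strand): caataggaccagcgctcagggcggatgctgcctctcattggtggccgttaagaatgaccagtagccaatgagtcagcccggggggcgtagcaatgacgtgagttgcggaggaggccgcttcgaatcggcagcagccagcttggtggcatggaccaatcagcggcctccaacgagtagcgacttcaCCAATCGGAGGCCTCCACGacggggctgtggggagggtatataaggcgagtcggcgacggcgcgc
Herpud1 (chr8:94386179-94386428, plus strand): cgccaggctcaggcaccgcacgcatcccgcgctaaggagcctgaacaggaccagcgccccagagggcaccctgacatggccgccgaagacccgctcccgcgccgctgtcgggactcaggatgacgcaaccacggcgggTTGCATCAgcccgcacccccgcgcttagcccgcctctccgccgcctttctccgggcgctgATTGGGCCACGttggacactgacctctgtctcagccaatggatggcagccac

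The values are log2 signals of the array's probe sets, so they compare 1 gene between mice and not 1 gene with another. Array medians ran from 6.89 to 6.98 and correlations between arrays from 0.981 to 0.994. Of 12 hypothalamic markers 11 were tested, and they lay from the 65th percentile of all genes (Pomc) to the 99.2th (the orexin gene Hcrt). With celastrol their mean ran from −0.18 to 0.02 relative to the DMSO mean. It ran from −0.25 to −0.04 with withaferin A, beside −0.07 to 0.10 with DMSO. With celastrol 10 of these 11 lay below 0, beside 57.4% of all genes, and only Pomc above, at 0.63 (limma adjusted p = 0.356). With withaferin A 9 of the 11 lay below 0, beside 51.5% of all genes. The oxytocin gene Oxt, named after its value was seen, fell with celastrol by 0.40 log2 units (limma adjusted p = 0.0179). The mean of all 8 thalamic markers differed widely between arrays of the same group, from −0.53 to 0.75 with DMSO, −0.15 to 1.03 with celastrol and −0.30 to 0.76 with withaferin A, and 8 of 8 had a group mean above DMSO with either compound, none of them passing. Of 7 pituitary markers 4 were tested, and their mean stood 3.09 log2 units above the DMSO mean on celastrol replicate 2, against 0.49 to 0.69 on the other celastrol arrays, 0.03 to 0.59 with withaferin A and −0.29 to 0.29 with DMSO. Of 8 choroid plexus markers 6 were tested, with a mean of −0.16 to 0.05 with celastrol and −0.14 to 0.11 with withaferin A. With DMSO it was 0.21 on replicate 1 and −0.13 to −0.03 on the other arrays. Ttr alone carried the value of replicate 1, at 8.71 against 6.53 to 6.83 on the other DMSO arrays. Kl (7.01), Kcnj13 (6.19) and Otx2 (6.57) had their lowest DMSO values on replicate 1. Folr1 (6.82) and Clic6 (7.29) lay there within the range of the other DMSO arrays. The mean of 8 oligodendrocyte markers, of 9 listed, was −0.22 to −0.19 with celastrol, −0.21 to −0.06 with withaferin A and −0.04 to 0.05 with DMSO. Opalin carried most of it, at 7.40 to 7.74 with celastrol against 8.45 to 8.73 with DMSO, while Mobp went the other way, at 11.20 to 11.40 against 10.92 to 11.05. With celastrol 6 of the 8 lay below 0 and 2 above, Mobp and Mal. Of the 8, 2 passed with celastrol, where 0.769% of all genes did. These were Opalin at −1.0 and Sox10 at −0.39 (limma adjusted p = 0.0229 and 0.0433). Without Opalin the mean of the other 7 was −0.10 to −0.07 with celastrol, −0.11 to −0.02 with withaferin A and −0.03 to 0.03 with DMSO. In whole tissue, fewer cells of a type and less RNA per cell cannot be told apart, and the part of these markers in the results below was not tested.

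No member of the unfolded protein response passed in any comparison. In limma's moderated test with Benjamini-Hochberg adjustment over all 14953 genes, 0 of 34 members had an adjusted p under 0.05 for celastrol versus DMSO, where 115 genes or 0.769% passed, with members' adjusted p from 0.195 to 0.996. For withaferin A versus DMSO 0 of 34 members and 0% of all genes passed, with members' adjusted p from 0.155 to 0.985. For withaferin A versus celastrol, compounds given at different doses, 0 of 34 members and 0.0468% of all genes passed, with members' adjusted p from 0.135 to 0.988. Most of the intervals around these differences were narrow. With celastrol the 95% interval of 82.4% of members, 28 of 34, lay within a 1.2-fold difference either way, against 63% of all genes tested, and no member's interval reached beyond 1.27-fold. With withaferin A the same number of members lay within 1.2-fold, against 56.6% of all genes, and the widest bound was 1.49-fold, for Pdia3. Between the compounds fewer did, 25 of 34 or 73.5%, against 56.1% of all genes, and the widest bound was 1.53-fold, again for Pdia3.

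**Figure D1:**
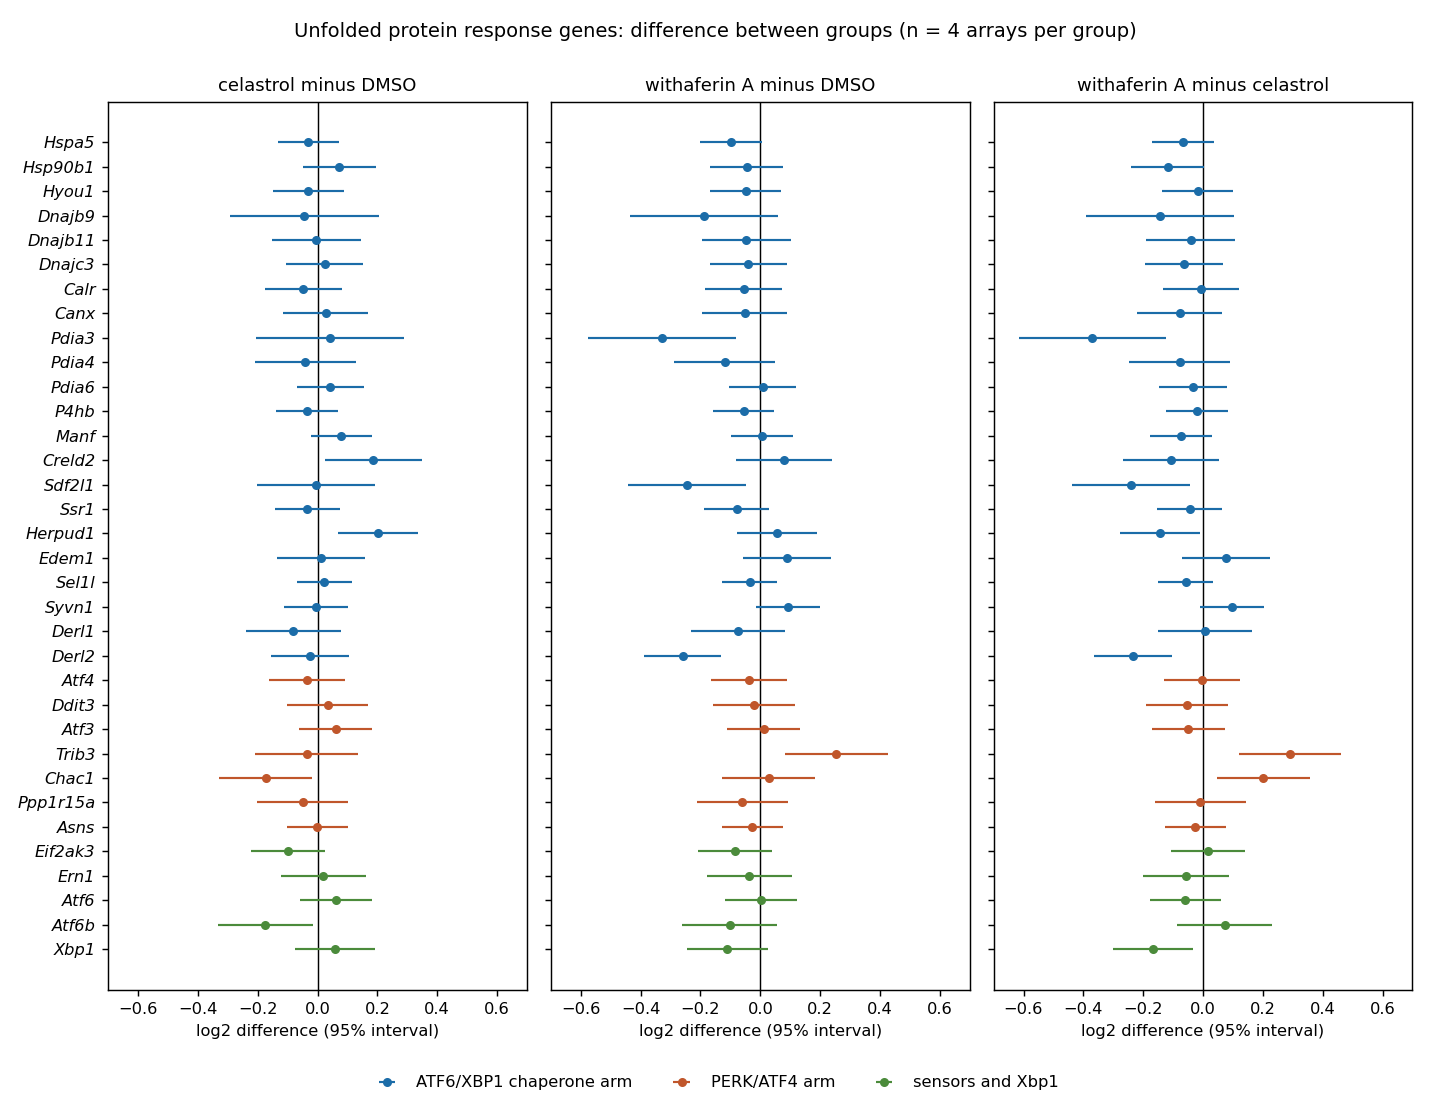
Log2 difference and 95% interval of each of the 34 members in celastrol minus DMSO, withaferin A minus DMSO and withaferin A minus celastrol, with 4 arrays per group and colours for the chaperone arm, the PERK/ATF4 arm and the sensors with Xbp1. Most intervals cross 0 and all 34 genes had an adjusted p above 0.05; Herpud1 and Creld2 lie farthest right with celastrol, Pdia3, Derl2 and Sdf2l1 farthest left and Trib3 farthest right with withaferin A.

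At an unadjusted p under 0.05, which does not allow for the number of genes tested, the counts were small. Celastrol versus DMSO gave 2 higher members (Herpud1 and Creld2) and 2 lower (Chac1 and Atf6b), beside 4.19% of all genes higher and 6.25% lower. Withaferin A versus DMSO gave 1 higher member (Trib3) and 3 lower (Derl2, Pdia3 and Sdf2l1), beside 6.62% and 9.11% of all genes. Withaferin A versus celastrol gave 2 higher members (Trib3 and Chac1) and 5 lower (Derl2, Pdia3, Sdf2l1, Herpud1 and Xbp1), beside 8.67% and 7.46%. Groups that did not overlap were seen for Herpud1 with celastrol against DMSO, where 7.21% of all genes had such groups, and for P4hb, Derl2 and Atf6b with withaferin A against DMSO, where 7.6% did. Between the compounds Hsp90b1, Pdia3, Sel1l, Derl2 and Trib3 did not overlap, beside 9.27% of all genes. The celastrol and withaferin A comparisons share the DMSO arrays, and each shares a treated group with the direct one, so they are not separate evidence.

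The transcripts of the PERK and IRE1 sensors overlapped between all groups. Eif2ak3, encoding PERK, lay at 8.13, 8.01, 7.96 and 8.12 on the DMSO arrays, at 7.84, 7.96, 8.01 and 8.01 with celastrol and at 7.94, 7.99, 7.93 and 8.02 with withaferin A. The treated arrays overlapped the lower DMSO arrays, and the differences from DMSO were −0.10 ± 0.06 (SE) with celastrol and −0.08 ± 0.06 with withaferin A (limma adjusted p = 0.592 and 0.492). Ern1, encoding the Xbp1-splicing nuclease IRE1, lay at 8.05, 8.09, 8.10 and 8.16 with DMSO, at 8.14, 7.98, 8.13 and 8.23 with celastrol and at 8.21, 7.96, 8.01 and 8.07 with withaferin A. The DMSO arrays sat within the range of both treated groups, and the adjusted p was 0.949 for celastrol and 0.813 for withaferin A.

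The ATF6 pair showed no common direction with celastrol. Atf6 values were 8.88, 8.76, 8.77 and 8.87 on DMSO arrays, 8.87, 8.78, 8.95 and 8.92 on celastrol arrays, and 8.85, 8.73, 8.86 and 8.85 on withaferin A arrays, groups that overlap throughout. Atf6b, whose product is held to be the weaker activator, was at 8.63, 8.66, 8.77 and 8.58 with DMSO, at 8.65, 8.54, 8.49 and 8.26 with celastrol and at 8.52, 8.57, 8.57 and 8.58 with withaferin A. Celastrol replicate 1 lay inside the DMSO range and replicate 4 well below every other array. The celastrol difference of −0.17 ± 0.07 (unadjusted p = 0.0329, limma adjusted p = 0.401) was −0.10 without celastrol replicate 4. All withaferin A arrays lay just below the lowest DMSO array, at −0.10 ± 0.07 (adjusted p = 0.513).

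Xbp1, the target of IRE1 and of ATF6, was at 10.71, 10.63, 10.76 and 10.68 on DMSO arrays, 10.79, 10.85, 10.75 and 10.62 on celastrol arrays and 10.60, 10.68, 10.59 and 10.47 on withaferin A arrays. Against DMSO both treated groups overlapped the controls, at 0.06 ± 0.06 for celastrol and −0.11 ± 0.06 for withaferin A (limma adjusted p = 0.821 and 0.404). Without celastrol replicate 2, with its high pituitary markers, the celastrol difference was 0.03. Between the treatments the difference was −0.17 ± 0.06 (95% interval −0.30 to −0.03, adjusted p = 0.223), withaferin A being lower.

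Hspa5, which encodes the ER chaperone BiP and is the most used readout of this response, varied little. Its signal was 11.78, 11.75, 11.71 and 11.66 on the DMSO arrays, 11.72, 11.68, 11.71 and 11.67 on the celastrol arrays and 11.57, 11.68, 11.63 and 11.62 on the withaferin A arrays. The celastrol arrays all lay within the DMSO range, and 3 of the 4 withaferin A arrays lay below it. The difference with celastrol was −0.03 ± 0.05, with a 95% interval from 0.912-fold to 1.05-fold (limma adjusted p = 0.883). With withaferin A it was −0.10 ± 0.05, with an interval from 0.87-fold to 1.003-fold (adjusted p = 0.337). The within-group SD of Hspa5, 0.043, was at the 2.19th percentile of all genes tested.

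Most of the other lumenal and membrane chaperones were as close to their controls. Hsp90b1, the ER form of HSP90 called GRP94, had a mean of 11.07 ± 0.08 (SD, n = 4) on DMSO arrays, 11.14 ± 0.08 on celastrol arrays and 11.02 ± 0.03 on withaferin A arrays. All 4 withaferin A arrays lay below the lowest celastrol array, at 0.921-fold (limma adjusted p = 0.321). Calr and Canx, the lectin chaperones of new glycoproteins, differed by −0.05 ± 0.06 and 0.03 ± 0.07 with celastrol and by −0.06 ± 0.06 and −0.05 ± 0.07 with withaferin A. Hyou1, an HSP70-like exchange factor for BiP, and the BiP co-chaperones Dnajb11 and Dnajc3 lay within 0.05 log2 units of the control in both comparisons. Dnajb9, a co-chaperone that restrains IRE1, was less precise, with −0.04 ± 0.12 and −0.19 ± 0.12. Its arrays ran from 10.41 to 10.86 with DMSO, from 10.42 to 10.94 with celastrol and from 10.38 to 10.66 with withaferin A, so the groups overlapped widely.

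Among the disulfide isomerases, Pdia3 had the largest difference with withaferin A, without passing the test. Pdia3, known as ERp57 and the partner of calreticulin and calnexin in glycoprotein folding, was at 10.81, 10.69, 10.27 and 10.62 with DMSO, at 10.51, 10.86, 10.50 and 10.68 with celastrol and at 10.40, 10.25, 10.36 and 10.08 with withaferin A. Withaferin A arrays lay below every celastrol array and below 3 of the 4 DMSO arrays, DMSO replicate 3 being as low as they were. The difference between withaferin A and DMSO was −0.33 ± 0.11 (0.796-fold, unadjusted p = 0.0127, limma adjusted p = 0.226). It was −0.44 with an adjusted p of 0.0524 without DMSO replicate 3 and −0.26 without DMSO replicate 1. Against celastrol the difference was −0.37 ± 0.11 (adjusted p = 0.18). Without celastrol replicate 2, with its high pituitary markers, it was −0.30, and celastrol minus DMSO was −0.03 against 0.04 with it. The other 3 isomerases ran from −0.12 (Pdia4) to 0.01 (Pdia6) with withaferin A and from −0.04 to 0.04 with celastrol, with adjusted p from 0.473 to 0.948.

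Creld2, a secreted disulfide isomerase-like protein with an ERSE in its promoter, was at 8.51, 8.63, 8.74 and 8.67 on DMSO arrays, 8.94, 8.67, 8.90 and 8.78 on celastrol arrays and 8.57, 8.75, 8.81 and 8.74 on withaferin A arrays. With celastrol 3 of 4 arrays lay above the DMSO range, at 0.19 ± 0.07 (1.14-fold, unadjusted p = 0.026, limma adjusted p = 0.367). The lower one was celastrol replicate 2, the array with high pituitary markers, and without it the difference was 0.24. Without DMSO replicate 1 the difference was 0.14. Manf, a secreted factor that protects neurons from ER stress, was at 8.10, 8.12, 8.05 and 8.09 on DMSO arrays, 8.10, 8.17, 8.23 and 8.17 on celastrol arrays and 8.07, 8.11, 8.06 and 8.15 on withaferin A arrays, with an interval of 0.984-fold to 1.13-fold for celastrol (adjusted p = 0.614).

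Sdf2l1, a partner of the DNAJB11 complex, was at 9.04, 8.95, 9.05 and 8.64 with DMSO, at 8.99, 8.96, 8.98 and 8.74 with celastrol and at 8.55, 8.76, 8.64 and 8.75 with withaferin A. The last DMSO array lay with the withaferin A arrays and kept those groups from separating. The withaferin A difference was −0.25 ± 0.09 (0.843-fold, unadjusted p = 0.0187, limma adjusted p = 0.249). It was −0.34 without DMSO replicate 4 and −0.20 without DMSO replicate 3. For Ssr1, a subunit of the translocon-associated complex, the differences were −0.03 ± 0.05 with celastrol and −0.08 ± 0.05 with withaferin A.

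**Figure D2:**
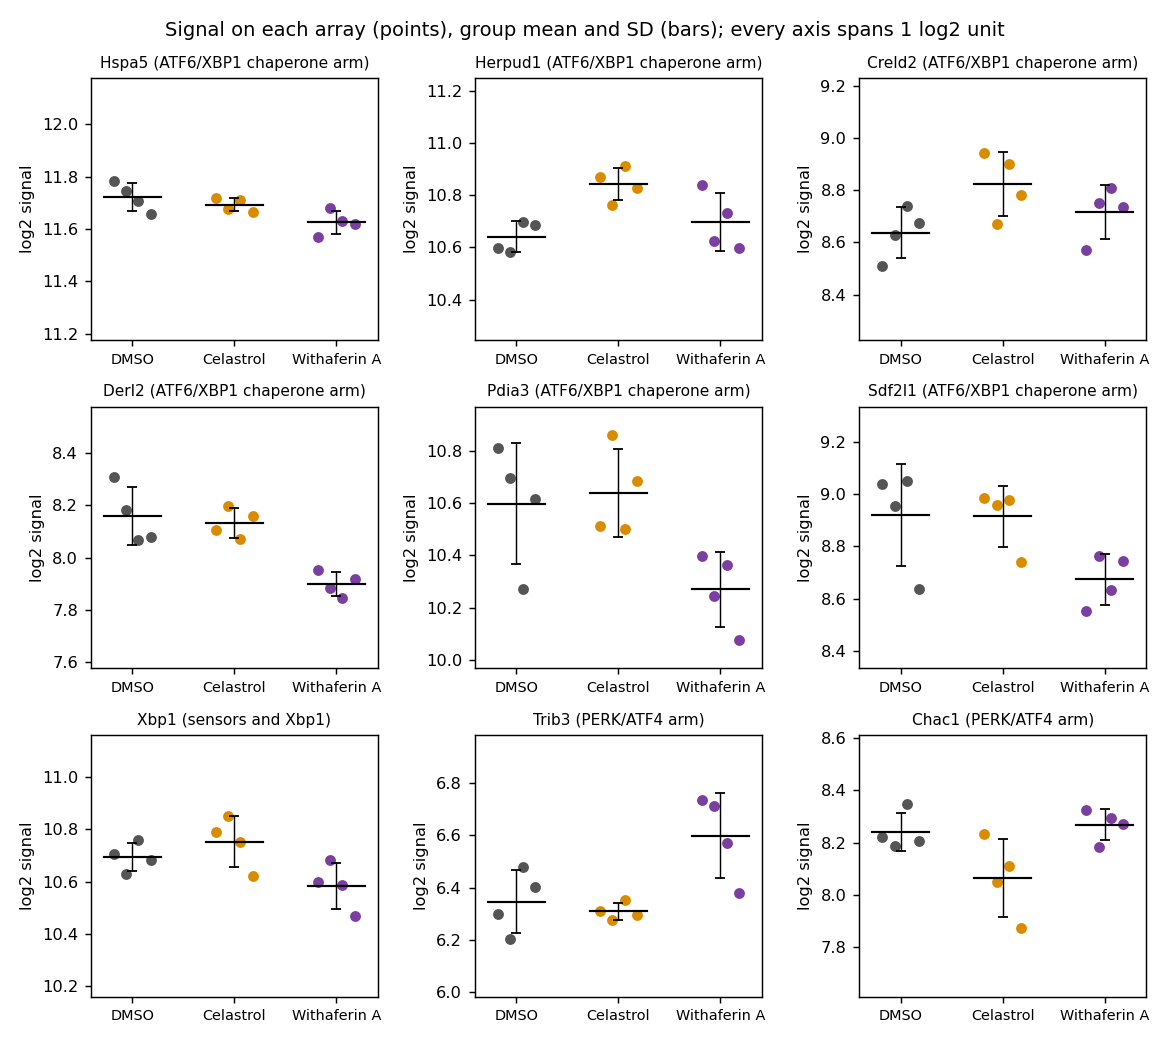
Log2 signal of 9 members on each array (points) in DMSO, celastrol and withaferin A mice, with the group mean and SD (bars, n = 4); every vertical axis spans 1 log2 unit. The celastrol arrays of Herpud1 lie above all DMSO arrays, the withaferin A arrays of Derl2 lie below all others, and the withaferin A arrays of Trib3 overlap only the DMSO arrays, from 6.38 against a DMSO maximum of 6.48.

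In the degradation machinery, celastrol had its largest difference at Herpud1 and withaferin A its smallest p at Derl2. Herpud1, a membrane scaffold that gathers the retrotranslocation complex and is known to be induced by both arms, was at 10.60, 10.58, 10.70 and 10.69 on DMSO arrays, at 10.87, 10.76, 10.91 and 10.83 on celastrol arrays and at 10.84, 10.62, 10.73 and 10.60 on withaferin A arrays. The lowest celastrol array, at 10.76, lay above the highest DMSO array, at 10.70. The difference was 0.20 ± 0.06 (1.15-fold, 95% interval 1.05-fold to 1.26-fold, unadjusted p = 0.00615, limma adjusted p = 0.195). Leaving out celastrol replicate 2, with its high pituitary markers, gave 0.23. With withaferin A it was 0.06 ± 0.06 (adjusted p = 0.68), and the direct contrast was −0.14 ± 0.06 (adjusted p = 0.276).

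Derl2, which encodes a channel-like protein of the retrotranslocation complex, was at 8.31, 8.18, 8.07 and 8.08 on DMSO arrays, 8.11, 8.20, 8.07 and 8.16 on celastrol arrays and 7.95, 7.88, 7.85 and 7.92 on withaferin A arrays. The withaferin A arrays lay below all 8 others. Against DMSO the difference was −0.26 ± 0.06 (0.835-fold, interval 0.763-fold to 0.914-fold, unadjusted p = 0.000787, limma adjusted p = 0.155), and against celastrol −0.23 ± 0.06 (adjusted p = 0.135). Without DMSO replicate 1 the difference from DMSO was −0.21, and without celastrol replicate 2 that from celastrol was −0.21. Without DMSO replicate 3 the difference from DMSO was −0.29 with an adjusted p of 0.0488, which made Derl2 the 1 member past the threshold. However, 167 of all genes also passed when that array was left out, against 0 with it. Its relative Derl1 differed by −0.07 ± 0.07 and did not separate.

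The remaining degradation genes stayed near the controls. Sel1l, the adaptor of the ubiquitin ligase encoded by Syvn1, had the lowest within-group SD of all members, 0.0205, and means of 10.68 on DMSO arrays, 10.70 on celastrol arrays and 10.64 on withaferin A arrays. Its withaferin A arrays lay below every celastrol array, a gap of 0.06 ± 0.04 log2 units between means (limma adjusted p = 0.507). Syvn1 differed by −0.0042 ± 0.05 with celastrol and 0.09 ± 0.05 with withaferin A, and Edem1, a lectin that directs misfolded glycoproteins to degradation, by 0.01 ± 0.07 and 0.09 ± 0.07.

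In the PERK/ATF4 arm the factors themselves were flat. Atf4 was at 7.90, 7.77, 7.83 and 7.94 on DMSO arrays, 7.84, 7.76, 7.89 and 7.81 on celastrol arrays and 7.84, 7.70, 7.86 and 7.89 on withaferin A arrays. Ddit3, encoding the pro-apoptotic factor CHOP, was at 7.92, 7.84, 7.83 and 7.91 on DMSO arrays, 8.05, 7.91, 7.83 and 7.87 on celastrol arrays and 7.998, 7.86, 7.77 and 7.80 on withaferin A arrays. For both genes the groups overlapped throughout and every interval from DMSO lay between 0.892-fold and 1.13-fold, with adjusted p from 0.781 to 0.908. ATF4 is controlled mainly at translation, which the arrays do not measure.

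Atf3, a stress-induced factor downstream of ATF4, was at 6.58, 6.55, 6.68 and 6.49 with DMSO, at 6.73, 6.57, 6.66 and 6.57 with celastrol and at 6.62, 6.62, 6.55 and 6.54 with withaferin A. Ppp1r15a, the regulatory subunit of the eIF2α phosphatase known as GADD34, was at 7.03, 7.15, 7.11 and 7.20 with DMSO, at 7.05, 7.05, 7.16 and 7.04 with celastrol and at 7.22, 6.89, 7.14 and 6.998 with withaferin A. Neither gene separated the groups, and their adjusted p ran from 0.709 to 0.94 against DMSO. Asns, asparagine synthetase and a standard ATF4 target, had means of 11.16 on DMSO arrays, 11.16 on celastrol arrays and 11.14 on withaferin A arrays, and its interval for celastrol was 0.932-fold to 1.07-fold.

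Trib3 and Chac1 had the largest differences of the PERK/ATF4 arm between the compounds, Trib3 because it was higher with withaferin A than in the other groups and Chac1 because it was lower with celastrol, without either passing the test. Trib3, a pseudokinase that inhibits AKT and feeds back on ATF4, was at 6.30, 6.20, 6.48 and 6.40 with DMSO, at 6.31, 6.28, 6.35 and 6.30 with celastrol and at 6.73, 6.71, 6.57 and 6.38 with withaferin A. Withaferin A replicate 4 lay inside the DMSO range, and the other 3 lay above it. The difference from DMSO was 0.25 ± 0.08 (1.19-fold, unadjusted p = 0.0069, limma adjusted p = 0.192), and from celastrol 0.29 ± 0.08 (adjusted p = 0.157). Trib3 is dim on these arrays, with a mean of 6.42 against a limit of 5.81 for testing, and the median of all 3481 genes with a mean under 7 was 0.08 in the same comparison. For celastrol versus DMSO that median was 6.2e-05. The part of this shift in the Trib3 value was not tested.

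Chac1, which breaks down glutathione and is a known target of ATF4 and CHOP, was at 8.22, 8.19, 8.35 and 8.21 with DMSO, at 8.23, 8.05, 8.11 and 7.87 with celastrol and at 8.32, 8.19, 8.29 and 8.27 with withaferin A. With celastrol 3 of 4 arrays lay below the DMSO range. The difference was −0.17 ± 0.07 (unadjusted p = 0.0299, limma adjusted p = 0.389), and −0.11 without celastrol replicate 4. The direct contrast was 0.20 ± 0.07, withaferin A being higher (adjusted p = 0.214).

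Read as groups, the arms moved by a few hundredths of a log2 unit. With celastrol the median difference was −0.0043 for the 22 chaperone arm genes, 12 of them below 0, −0.036 for the 7 PERK/ATF4 genes and 0.019 for the 5 sensors, beside −0.017 for all genes tested, 57.4% of which were below 0. The chaperone value took the other sign, 0.0046, when the arrays were quantile-normalized anew. With withaferin A the medians were −0.050 for the chaperone arm, 16 of 22 below 0, −0.021 for the PERK/ATF4 arm and −0.084 for the sensors, beside −0.0041 for all genes, 51.5% of which were below 0. The PERK/ATF4 median was −0.066 with each array centred on its median and turned to 0.0087 without withaferin A replicate 3; it was −0.0016 to −0.0086 without DMSO replicate 1 or 4 or withaferin A replicate 2 or 4 and −0.032 to −0.033 without DMSO replicate 2 or 3. The sensor median was −0.048 after renewed quantile normalization and −0.13 with centred arrays. The chaperone median was 0.0022, with 10 of 22 below 0, after renewed quantile normalization. It was −0.096 after centring each array on its median, so its direction depends on the scaling. The median of all genes was 0.0071 after renewed quantile normalization and −0.050 with centred arrays. Centring thus lowered the median of all genes as well as those of the arms. For withaferin A against celastrol the chaperone median was −0.066, with 19 of 22 below 0 beside 45.1% of all genes. It was −0.026 after quantile normalization and −0.10 with centred arrays, where 14 and 20 of 22 chaperone arm genes lay below 0. The median of all genes in that comparison was 0.013, and 0.022 and −0.021 under those scalings.

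**Figure D3:**
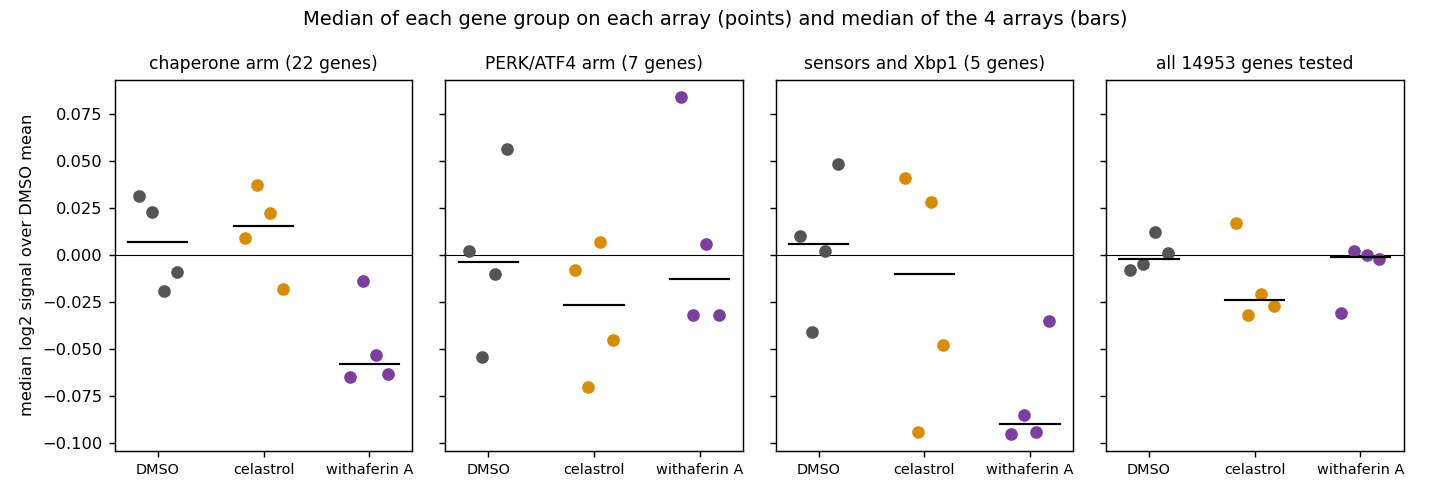
Median over the genes of each arm, and over all 14953 genes tested, of the log2 signal minus the DMSO mean of the gene, on each array (points) with the median of the 4 arrays (bars). In the chaperone arm the withaferin A arrays run from −0.07 to −0.01 and the DMSO arrays from −0.02 to 0.03, while the PERK/ATF4 arrays of all groups overlap.

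The brightness of the probe sets moved with the withaferin A values. All 22 chaperone arm genes had a mean of at least 8.06, and of the 8359 genes with a mean of 8 or more 64.4% were below 0 for withaferin A versus DMSO, with a median of −0.034. By brightness the median of all genes went from 0.08 under 7 to −0.051 at 11 or more. For celastrol versus DMSO the same medians were 6.2e-05 and −0.030. The SD of signals within an array was 2.19 to 2.22 with withaferin A, below the 2.23 to 2.29 of the DMSO arrays, while celastrol arrays had 2.21 to 2.25. The part of this pattern in the chaperone median of −0.050 was not tested.

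**Figure D4:**
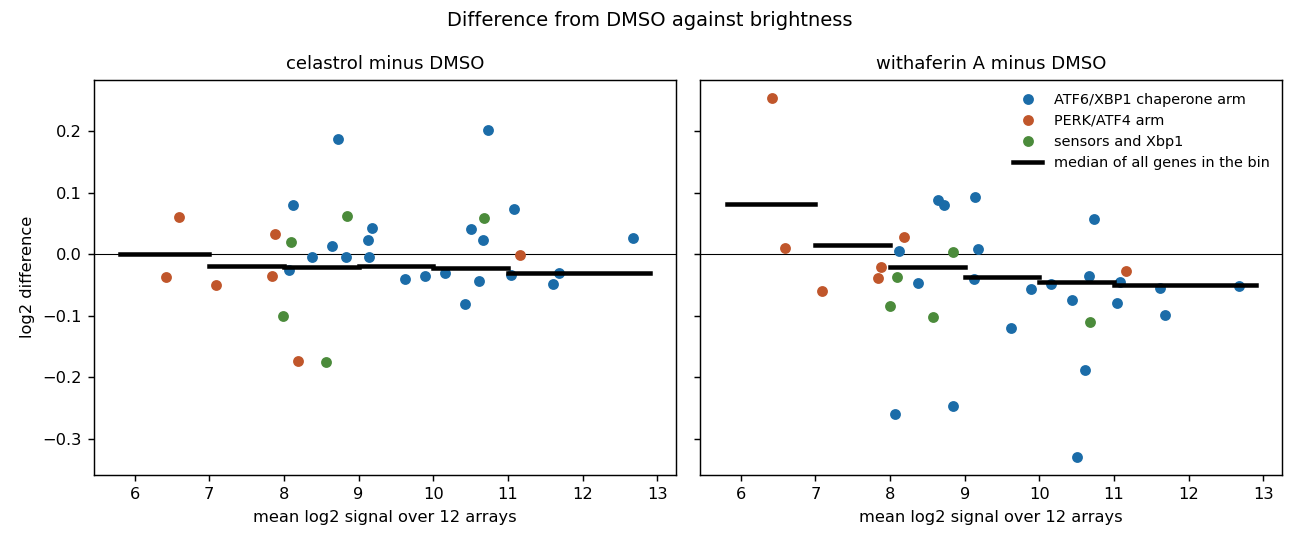
Log2 difference from DMSO of the 34 members (points, coloured by arm) against their mean log2 signal over 12 arrays, with the median of all genes tested in each bin of brightness (black bars), for celastrol and for withaferin A. The black bars descend from 0.08 to −0.051 with withaferin A and stay between −0.030 and 6.2e-05 with celastrol; Derl2, Pdia3 and Sdf2l1 are the blue points far below their bars and Trib3 is the red point far above.

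Within groups, part of the chaperone arm varied together from mouse to mouse. With each group's mean removed, Pearson correlations with Hspa5 over the 12 arrays were 0.76 for Dnajb11, 0.76 for Sdf2l1, 0.71 for Calr, 0.67 for Pdia6, 0.58 for Hyou1, 0.55 for Pdia4 and 0.53 for Dnajc3. The Spearman values of these genes were 0.74, 0.66, 0.77, 0.69, 0.51, 0.41 and 0.67. So 7 of 21 other chaperone arm genes, 33.3%, had a correlation above 0.5, beside 8.29% of all genes and 0 of 7 PERK/ATF4 genes. Ppp1r15a at −0.63 and Ern1 at −0.60 were the 2 members under −0.5, beside 4.83% of all genes. With the 2 arrays farthest from the median left out, DMSO replicates 1 and 4, the counts were 8 of 21 (38.1%) and 14.4% of all genes. Over all pairs of chaperone arm genes the median correlation was 0.095, beside 0.022 for all pairs of genes tested. It was higher, 0.274, over the 21 pairs of PERK/ATF4 genes, and −0.404 over the 10 pairs of sensors. Pairs above 0.5 made up 15.6% in the chaperone arm, 9.52% in the PERK/ATF4 arm, 20% among the sensors and 9.78% of all pairs. Correlation with Hspa5 thus does not show whether the PERK/ATF4 genes varied together. Herpud1 at −0.48, Ssr1 at −0.28 and Dnajb9 at −0.24 did not follow Hspa5. These correlations are descriptions over arrays that share 1 normalization, and the deviations are small: Hspa5 itself stayed within 0.066 of its group mean.

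**Figure D5:**
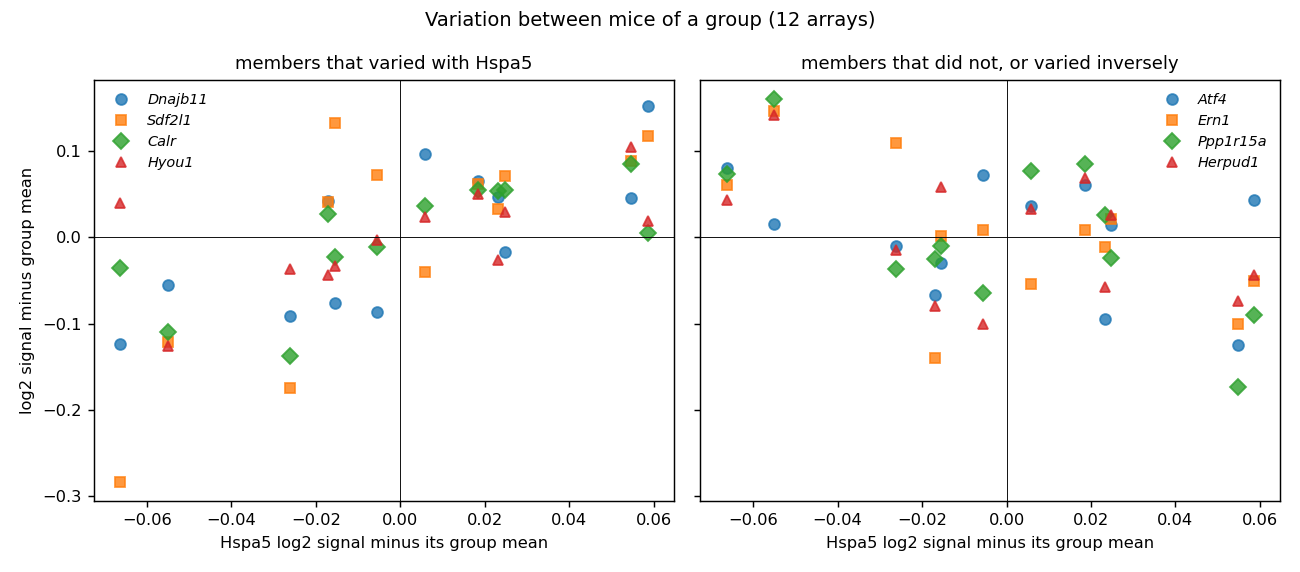
Log2 signal minus the group mean of 8 members against that of Hspa5 on the 12 arrays; both panels share the vertical axis. Dnajb11, Sdf2l1, Calr and Hyou1 rise with Hspa5 (left, Pearson 0.76, 0.76, 0.71 and 0.58), while Ern1, Ppp1r15a and Herpud1 run the other way and Atf4 has no clear slope (right, −0.60, −0.63, −0.48 and −0.33).

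The members' spread between mice of a group was small. The median within-group SD was 0.077 in the chaperone arm, 0.084 in the PERK/ATF4 arm and 0.082 among the sensors, beside 0.107 for all genes tested. Dnajb9 and Pdia3 were the exceptions, at 0.186 and 0.185, near the 90th percentile. Each member had 1 probe set except Dnajc3, whose 2 probe sets carried the same values, and Pdia4, whose other probe set was dim at 5.71 and differed in sign from the one used, at 0.08 with celastrol and 0.21 with withaferin A.

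Of 121 further genes of the pathway, 111 were tested and 2 passed, both in the list of 25 tested ATF4 targets and both with celastrol, where 0.769% of all genes passed. Ddit4, an inhibitor of the growth kinase mTORC1 that ATF4 and glucocorticoids are known to induce, was at 8.53, 8.53, 8.93 and 9.13 with DMSO, at 9.46, 9.55, 9.63 and 9.44 with celastrol and at 9.26, 8.71, 9.38 and 9.03 with withaferin A. Celastrol arrays lay above all others, and Ddit4 rose by 0.74 ± 0.15 over DMSO (1.67-fold, limma adjusted p = 0.0403). Gpt2, a mitochondrial alanine aminotransferase, rose by 0.32 ± 0.07 (adjusted p = 0.0474), from 9.17 to 9.23 with DMSO to 9.497 to 9.59 with celastrol. Both calls are near the threshold. Ddit4 had an adjusted p of 0.0638 to 0.138 when any one of DMSO replicates 1 to 3 or of celastrol replicates 1 to 4 was left out, and Gpt2 of 0.0505 to 0.149 without any one of the DMSO or celastrol arrays or without withaferin A replicate 2. Gpt2 also missed the threshold with centred arrays (0.0901) and with the replicate number as a block (0.095), Ddit4 with an intensity trend (0.0531), and both with no filter on dim genes (0.0627 for Ddit4 and 0.0802 for Gpt2). The median of the ATF4 target list was −0.0013 with celastrol, with 12 genes above and 13 below 0. With withaferin A 0 of 25 passed, and Slc7a11, the cystine transporter, had the smallest p at −0.36 ± 0.14 (adjusted p = 0.256), which was −0.20 without withaferin A replicate 1. With celastrol Slc7a11 was at −0.41 ± 0.14 (adjusted p = 0.256), and its celastrol arrays, at 9.14 to 9.35, lay below all DMSO arrays, at 9.38 to 9.83.

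The other lists gave 0 calls in limma's test in each comparison. In the 23 tested genes of ER import and glycosylation, 9 were lower and 0 higher at an unadjusted p under 0.05 with withaferin A, with a median of −0.066, beside 9.11% of all genes lower and 6.62% higher. With celastrol 1 was lower and 0 higher, beside 6.25% and 4.19%, and between the compounds 4 were lower and 1 higher, beside 7.46% and 8.67%. The smallest p belonged to Sec11c and Spcs1, subunits of the signal peptidase, at −0.22 ± 0.05 each (adjusted p = 0.155 each). Sec11c was at 9.39, 9.24, 9.22 and 9.30 on DMSO arrays, 9.07, 9.15, 9.08 and 9.15 on celastrol arrays and 9.08, 9.07, 9.01 and 9.09 on withaferin A arrays, so that all treated arrays lay below all DMSO arrays. Spcs1 was at 10.67, 10.60, 10.57 and 10.63 with DMSO, at 10.55 to 10.65 with celastrol and at 10.49, 10.42, 10.30 and 10.37 with withaferin A, below all others. For withaferin A versus DMSO the median of all genes was −0.0041. It was −0.036 for genes with a mean of 9 to 10, as Sec11c has, and −0.045 at 10 to 11, as Spcs1 has. The part of brightness in the values of this list was not tested. In the 21 further folding genes the medians were 0.024 with celastrol and −0.023 with withaferin A, Erp44, which retrieves unassembled protein to the ER, having −0.35 ± 0.09 with withaferin A (adjusted p = 0.169). In the 19 further degradation genes the medians were −0.051 and −0.053, and Ube2j1, a ubiquitin-conjugating enzyme of the ER membrane, had −0.16 ± 0.06 and −0.20 ± 0.06 (adjusted p = 0.315 and 0.173). The 12 genes around eIF2 had medians of 0.013 and −0.037 and the 11 further signalling genes −0.013 and −0.0052.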

How the data were processed

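Total RNA of 12 hypothalami was hybridized to Affymetrix whole-transcript arrays, 1 per sample. The authors deposited log2 values made by RMA, per the submitters' processing notes; its version is not given in the sources used here. Of 35556 probe sets, 21789 carried 1 gene symbol in the platform annotation, 1621 several and 12146 none. Each of 19938 genes was represented by its brightest probe set, and genes under the 25th percentile of mean signal (5.81) were left out. limma 3.58.1 in R 4.3.3 fitted 3 group means to all 12 arrays, two-sided, with Benjamini-Hochberg adjustment over 14953 genes and a threshold of 0.05. Precision is limited by the 4 arrays per group; the labels call them biological replicates. The code was tested on simulated data. Promoters were read with Python 3.11.15 and figures drawn with matplotlib 3.10.9. The members and lists were chosen with earlier results of these data known. The values of every array are given for 7 core members (Hspa5, Xbp1, Atf6, Ern1, Eif2ak3, Atf4 and Ddit3) and for the 3 members of smallest p in each arm and comparison, and in other lists up to 2 genes of smallest p per comparison are named. Replicate numbers were not taken as pairs, since deviations of same-numbered arrays correlated between −0.281 and 0.119. Alternatives covered filter, probe set rule, scaling, prior, array weights, samples and single arrays.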

Additional observations from a re-analysis of the deposited data

Results flagged for a closer look

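A value was singled out where 1 array of a group of 4 lay so far from the others that its gap to the nearest, divided by the group's range, passed Dixon's critical value at 95%. Chance gives about 1 in 20 such groups, and 8 of 111 groups were singled out. Celastrol replicate 4 was low for Calr at 11.46 (nearest array 11.63), for Sdf2l1 at 8.74 (8.96) and for Edem1 at 8.49 (8.66). Celastrol replicate 3 was high for Pdia6 at 9.31 (nearest 9.18) and for Ppp1r15a at 7.16 (7.05). Withaferin A replicate 4 was low for Derl1 at 10.28 (nearest 10.43) and highest in the median of the sensors at −0.035 (−0.085). Withaferin A replicate 2 was low for Atf6 at 8.73 (nearest 8.85).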

How the results depend on the processing

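The count of members past the threshold was 0 in every comparison and alternative run, except for Derl2 in withaferin A versus DMSO without DMSO replicate 3 (range 0 to 1 with single arrays left out). Leaving out genes under the 50th percentile kept 31 of 34 members in the test. Over all genes, the celastrol count of 115 was 60 with no filter, 195 with an intensity trend and robust prior, 219 with array weights, 182 with only the 2 groups compared and 54 with the replicate block, and 6 to 203 with single arrays left out. The withaferin A count of 0 was 8 with the trend, 21 with array weights and 0 to 167 with single arrays left out. The direct count of 7 was 11 with no filter, 13 over the brighter genes, 12 with centred arrays, 29 with the trend, 19 with weights, 0 with only the 2 groups and 0 to 56 with single arrays left out. The replicate block changed no member's call, but with it Gpt2 lost its call with celastrol (adjusted p = 0.095).

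The chaperone median moved to 0.00217 (quantile) and −0.0959 (centred) for withaferin A versus DMSO and to −0.0259 and −0.0998 against celastrol. The sensor median of withaferin A versus DMSO was −0.13 when centred. The median of all genes was 0.00708 (quantile) and −0.0498 (centred) versus DMSO and 0.0215 and −0.0213 against celastrol. With single arrays left out the chaperone median with celastrol ran from −0.0221 to 0.026 and the PERK/ATF4 median between compounds from −0.0248 to 0.0388.

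Named members near 0 turned sign. With withaferin A versus DMSO, Atf3 was −0.0499 (quantile) and −0.0349 (centred), Atf6 −0.0426 (centred) and −0.00057 (weights), Chac1 −0.0177 (centred) and Manf −0.0401 (centred) and −0.00111 (weights). In the same comparison centring moved the median of all genes from −0.00414 to −0.0498. Eif2ak3 between compounds was −0.0186 (centred), and with array weights Pdia3 was −0.00678 and Sdf2l1 0.0353 with celastrol. With single arrays left out, the ranges with celastrol versus DMSO were −0.011 to 0.0621 for Ddit3, −0.0561 to 0.0243 for Derl2, −0.0171 to 0.0659 for Ern1, −0.0673 to 0.112 for Pdia3, −0.0987 to 0.0537 for Sdf2l1 and −0.0838 to 0.00804 for Trib3. With withaferin A versus DMSO they were −0.0173 to 0.0455 for Atf3, −0.0698 to 0.00308 for Atf4, −0.0164 to 0.0325 for Atf6, −0.0671 to 0.00874 for Ddit3 and −0.0134 to 0.0179 for Manf. Between compounds they were −0.0269 to 0.0388 for Atf4, −0.00204 to 0.126 for Atf6b, −0.0217 to 0.034 for Eif2ak3 and −0.0634 to 0.0478 for Ppp1r15a. Ddit4 passed in 12 and Gpt2 in 9 of 21 alternatives. The cause of these changes was not tested.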
